A study of Homo sapiens with 3 samples.

Results

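The metallothionein genes MT1E, MT1F, MT1G, MT1H, MT1M, MT1X and MT2A and their regulator MTF1 were followed in KYSE140 cells, an established line from a human oesophageal squamous cell carcinoma. Their members were the probe sets whose platform annotation gave 1 gene symbol and that symbol was one of the 8 genes, which took in 14 of 41091 such probe sets and 8 of 19775 genes. The 11 metallothionein probe sets included 9 with the suffix _x_at, which marks a probe set containing probes that also match other sequences. The 3 MTF1 probe sets had no such mark. Cells kept for 12 h with cisplatin, a DNA-crosslinking platinum compound, gave 2 arrays, titled B1 and B2, and cells left untreated gave 1 array. The labels give its concentration as 10 mM, and since micromolar levels are usual in culture, the unit is uncertain. All 3 arrays came from the same line in the same serum-containing medium. The labels do not say whether B1 and B2 were separate cultures. Their spread may thus be technical or lie between cultures, which was not tested.

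Metallothioneins are small proteins rich in cysteine whose thiol groups hold zinc and copper and also capture cadmium and platinum. They buffer free zinc in the cell, and high metallothionein levels have long been associated with reduced sensitivity to cisplatin. MTF1, a zinc finger transcription factor that senses zinc, enters the nucleus when zinc rises and binds metal response elements in the promoters of metallothionein genes and of zinc exporters. Oxidative stress and glucocorticoids also induce several metallothionein genes.

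The cisplatin arrays did not resemble each other as closely as B1 resembled the untreated array, which bears on every value below. Over 19775 genes, each read from its brightest probe set, the SD of the log2 difference was 0.56 for B2 against B1, 0.60 for B2 against untreated and 0.33 for B1 against untreated. Array medians were 35.9 in B1, 35.6 in B2 and 34.8 in the untreated array, and all intensities lay between 3.03 and 19645. Of the epithelial genes listed for a squamous line, 9 were measured, among them EPCAM, named outside the rule, at an intensity of 4503 in B1, 4190 in B2 and 4545 untreated. Of those 9, 3 were at least 2-fold higher in B2 (KRT5, KRT14 and DSG3, the last named after its values were seen) and 2 at least 2-fold lower (KRT13 and KRT15), against 2.99% and 4.5% of all genes. The basal keratin KRT14 read 276 in B1, 2372 in B2 and 278 untreated, and the keratin KRT13 read 68.2 in B1, 25.5 in B2 and 66.0 untreated. The 6 measured leukocyte markers and 7 endothelial markers ran from 5.24 to 55.1 in all arrays, around or below the array medians, while of 10 fibroblast markers VIM and THY1 were at least 2-fold higher in B2 (2.99% of all genes) and 0 were listed at 0. The brightest set of the mesenchymal filament gene VIM read 97.5 in B1, 565 in B2 and 78.8 untreated, but 1 of its 2 probe sets was lower in B2 than untreated, and their mean log2 difference in B2 was 1.42 in place of 2.84. The summed intensity of those 10 was 485 in B1, 1045 in B2 and 435 untreated. What part these B2 values have in the results was not tested.

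Metallothionein signal was close to the untreated level in B1 and far below it in B2. The 9 _x_at probe sets differed from untreated by -0.16 to 0.09 on the log2 scale in B1 and by -6.31 to -1.72 in B2. All 9, of 11 metallothionein probe sets, were at least 2-fold lower in B2 than in the untreated array, against 3.85% of all 54613 probe sets, and the same 9 were also at least 2-fold lower than in B1, against 1.85%. By brightest probe set this was 6 of 7 genes, against 2.41% of all genes. Dim genes lower such shares: of 10209 genes with a mean log2 of at least 6, 7.36% were 2-fold lower in B2 than untreated. A difference of at least 2-fold in the same direction in both cisplatin arrays was seen for 0 of 7 genes, where 0.678% of all genes were lower and 0.142% higher. The median log2 difference of the 7 genes was -0.03 in B1 and -2.34 in B2, beside medians over all genes of 0.03 and 0.05. In bulk RNA, fewer cells with metallothionein transcripts and less transcript per cell cannot be told apart.

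**Figure D1:**
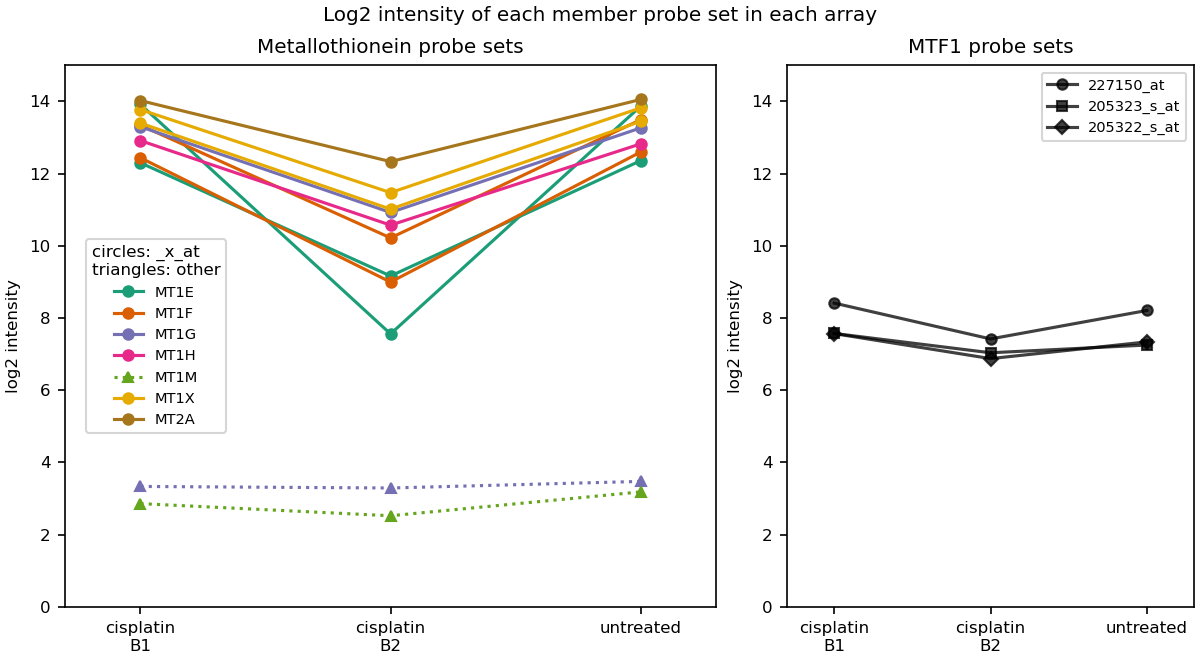
Log2 intensity (vertical axis) of the 11 metallothionein probe sets (left) and 3 MTF1 probe sets (right) in cisplatin B1, cisplatin B2 and the untreated array, 1 point per array, lines joining a probe set. The 9 _x_at sets dip in B2 and stand at like heights in B1 and untreated, while the 2 other metallothionein sets lie near the bottom throughout.

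MT2A, the most widely expressed human metallothionein gene, was read by 1 probe set, 212185_x_at. It had an intensity of 16621 in B1 and 5152 in B2, against 16988 in the untreated array. B2 thus stood at 30.3% of untreated and B1 at 97.8%. Among all probe sets this one ranked 5 from the brightest in B1, 353 in B2 and 3 in the untreated array. The mean log2 level of the cisplatin pair was 13.18 ± 1.19 (SD, n = 2) and the single untreated value was 14.05. The difference, -0.88 with a limma standard error of 0.84, was smaller than the spread of the pair. With B1 so near untreated, this holds for any far lower value in B2 and is not particular to MT2A.

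MT1X, an isoform also found in many tissues, was read by 2 _x_at probe sets that gave like differences. Probe set 208581_x_at had an intensity of 13989 in B1 and 2840 in B2, against 14453 untreated. Probe set 204326_x_at had 10789 in B1 and 2068 in B2, against 11152 untreated. B2 was therefore 5.09-fold and 5.39-fold lower than untreated, and B1 differed by -0.05 on the log2 scale in each.

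MT1H, which neighbours MT1G on chromosome 16, had an intensity of 7705 in B1 and 1521 in B2, against 7241 in the untreated array, all from 206461_x_at. B1 was slightly above untreated (log2 0.09) and B2 4.76-fold below it.

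These 3 genes and MTF1 had an upstream sequence in the RefSeq promoter table (build GRCh38.p14), and it is shown because metallothionein promoters carry the metal response elements that MTF1 binds. Each line gives the 250 bases before the annotated start, 5′ to 3′ on the gene's own strand, with every match to the element's core, TGCACNC or TGCGCNC on either strand, in capitals. MT2A lies at chr16:56608334-56608583 (plus strand), MT1X at chr16:56682220-56682469 (plus), MT1H at chr16:56669564-56669813 (plus) and MTF1 at chr1:37859593-37859842 (minus).
MT2A: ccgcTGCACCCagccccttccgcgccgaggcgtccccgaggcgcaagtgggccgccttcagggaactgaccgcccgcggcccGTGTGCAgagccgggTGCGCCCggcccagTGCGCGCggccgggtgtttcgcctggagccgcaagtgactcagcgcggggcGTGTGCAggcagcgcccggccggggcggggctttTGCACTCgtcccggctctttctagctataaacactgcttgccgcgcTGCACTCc
MT1X: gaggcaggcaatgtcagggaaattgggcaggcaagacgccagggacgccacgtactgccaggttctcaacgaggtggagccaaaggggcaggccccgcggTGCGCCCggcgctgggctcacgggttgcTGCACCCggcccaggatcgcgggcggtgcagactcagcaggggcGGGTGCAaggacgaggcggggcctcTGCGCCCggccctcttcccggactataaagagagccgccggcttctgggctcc
MT1H: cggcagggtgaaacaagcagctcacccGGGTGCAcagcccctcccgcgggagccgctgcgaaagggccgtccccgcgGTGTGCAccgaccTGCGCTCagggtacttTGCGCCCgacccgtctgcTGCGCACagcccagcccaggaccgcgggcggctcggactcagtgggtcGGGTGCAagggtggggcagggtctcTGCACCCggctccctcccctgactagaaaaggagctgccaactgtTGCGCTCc
MTF1: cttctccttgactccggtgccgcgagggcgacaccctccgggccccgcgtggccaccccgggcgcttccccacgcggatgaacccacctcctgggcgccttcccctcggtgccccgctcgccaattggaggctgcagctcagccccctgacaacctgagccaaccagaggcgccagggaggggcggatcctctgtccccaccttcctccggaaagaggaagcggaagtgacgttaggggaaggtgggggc

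The stretch before MT1H held 8 core matches, that before MT2A 7 and that before MT1X 4, and they did not overlap each other. Of 35116 promoters of this length, 24.8% held at least 1 match, 0.37% at least 4, 0.0313% at least 7 and 0.0171% at least 8. The MTF1 stretch held 0. All 3 metallothionein stretches had a match beginning 53 or 54 bases before the start (positions -53 and -54), and MT2A and MT1X carried TATAAA at -29 and -30, a match found in 10.7% of promoters. MT2A also held the AP-1 site TGACTCA, present in 4.2% of promoters, which overlaps its match to the antioxidant response element core TGACNNNGC, present in 10.9%. MT1X held a match to that core at -243, and MT1H held neither. The GC box GGGCGG occurred in all 4 stretches and in 42.6% of promoters.

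**Figure D2:**
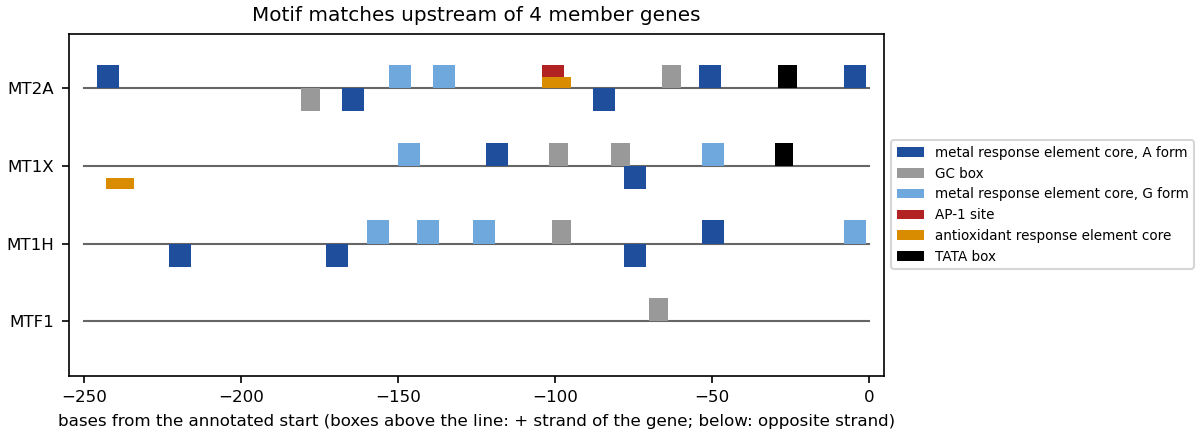
Motif matches (coloured boxes, legend at right) in the 250 bases before the annotated start of MT2A, MT1X, MT1H and MTF1; the horizontal axis is the distance from the start in bases, and boxes above and below the line are the 2 strands. Metal response element cores number 7, 4, 8 and 0 from top to bottom.

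MT1E showed the largest difference of any member, and its probe sets differed from each other in size. Probe set 212859_x_at had an intensity of 15441 in B1 and 188 in B2, against 14919 in the untreated array. B2 was at 1.26% of untreated, a 79.2-fold lower value, and only 2 of the 54613 probe sets had a lower B2 minus untreated difference, which placed it at rank 3. Probe set 216336_x_at had 5034 in B1 and 573 in B2, against 5243 untreated, or 9.15-fold lower in B2. Both sets agreed on the order of the arrays, with B2 well below the other 2, but not on the amount.

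MT1F had the next largest differences. Its probe set 217165_x_at had an intensity of 10366 in B1 and 1191 in B2, against 11507 untreated, and 213629_x_at had 5542 in B1 and 510 in B2, against 6191 untreated. B2 was 9.66-fold and 12.1-fold lower, and B1 stood at 90.1% and 89.5% of untreated.

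MT1G gave contrasting readings. Probe set 204745_x_at had an intensity of 10058 in B1 and 1940 in B2, against 9837 untreated, a 5.07-fold lower value in B2. Its other set, 210472_at, had 10.1 in B1, 9.78 in B2 and 11.1 untreated, under the median of every array. The bright signal assigned to MT1G therefore came from the set whose probes match several sequences. MT1M was read by 1 set without that mark, 217546_at, at 7.25 in B1, 5.74 in B2 and 9.07 untreated. It too lay under the array medians, so its log2 differences of -0.32 and -0.66 are between dim values. Because the family's genes are near-identical in sequence, the 9 _x_at values may share transcripts among MT1 genes and cannot be divided between them.

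No member passed the limma test. Over all 54613 probe sets 0 were called at an adjusted p of 0.05 (Benjamini-Hochberg; 0 of 14 members), and 3.96% had an unadjusted p under 0.05, again with 0 of 14 members. The members' adjusted p ran from 0.95 for the metallothionein sets, MT1E among them, to 0.99 for MTF1 205323_s_at. MT1E 212859_x_at had a mean log2 difference of -3.13 with a standard error of 3.08, because the SD of its cisplatin pair was 4.49. With 1 untreated array the fit had 1 residual degree of freedom, all of it from the gap between B1 and B2.

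MTF1 itself was lower in B2 and higher in B1 than in the untreated array, in all 3 of its probe sets, and by less than 2-fold. Probe set 227150_at had an intensity of 341 in B1 and 171 in B2, against 296 untreated. Probe set 205323_s_at had 190 in B1 and 131 in B2, against 152 untreated. Probe set 205322_s_at had 190 in B1 and 117 in B2, against 162 untreated. The log2 differences were 0.20 to 0.32 in B1 and -0.79 to -0.22 in B2, so the 2 cisplatin arrays lay on opposite sides of the untreated one. Their means, -0.29, 0.05 and -0.12 in the order of the probe sets above, had no common sign. A lower value in B2 than in both other arrays, of any size, was found for 33.1% of all probe sets.

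**Figure D3:**
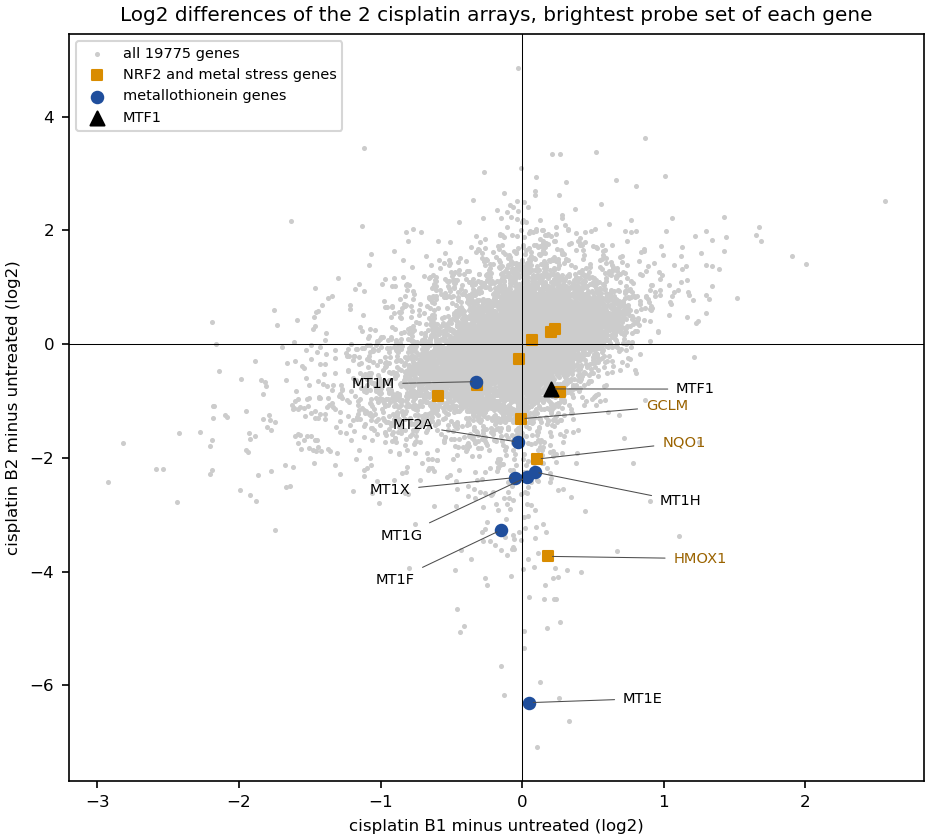
Log2 difference from the untreated array in cisplatin B1 (horizontal) and cisplatin B2 (vertical) for all 19775 genes (grey), the 7 metallothionein genes (blue), MTF1 (black triangle) and a list of NRF2 and metal stress genes (orange). Metallothionein genes lie near 0 horizontally and down to -6.31 vertically, and HMOX1 lies at 0.19 and -3.73.

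The metallothionein cluster on chromosome 16 holds 16 genes and pseudogenes in RefSeq, 11 of them protein coding, and 9 were measured. Beyond the members these were MT3 and MT4, expressed mainly in brain and in stratified epithelium, at the edge of the cluster. MT3 had an intensity of 54.6 in B1 and 41.3 in B2, against 57.7 untreated, and MT4 46.9 in B1 and 34.7 in B2, against 41.0 untreated. Both differed by less than 2-fold, but they were dim, with mean log2 levels of 5.66 and 5.34, under the filter level of 6. MT1HL1, a metallothionein-like gene outside the cluster read by another _x_at set, had 5739 in B1 and 1677 in B2, against 5768 untreated, or 3.44-fold lower in B2. It thus showed the same order of arrays as the bright members, but an _x_at set may also read their transcripts. The MT1HL1 values are therefore not a separate observation. Among the genes on either side, values were nearer untreated: of 8 measured neighbours, 0 were at least 2-fold lower in B2, where 4.5% of all genes were. With 8 neighbours a count of 0 is near that share. Their median log2 difference was 0.21 in B1 and 0.34 in B2, with NUDT21, an mRNA 3′ end processing factor, at -0.01 and -0.67 and HERPUD1, an endoplasmic reticulum stress gene, at 0.53 and 0.74. GNAO1 (0.32 and 0.43), SLC12A3 (0.29 and 0.48) and CETP (0.35 and 0.44) were dim, and over all probe sets of each gene the means of the 2 arrays were 0.12 for GNAO1 and 0.06 for SLC12A3. NUDT21 was picked out after its values were seen.

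Genes listed as MTF1 targets outside the family lay nearer to untreated in B2 than the metallothioneins. Of 12 measured, 0 were at least 2-fold lower in B2 (4.5% of all genes), 1 was higher (2.99% of all genes), and the median log2 difference was 0.04 in B1 and -0.16 in B2. With 12 genes a count of 0 is near the 4.5% share. HAMP and SLC40A1, named outside the rule, read 23.0 and 10.4 untreated, under the array median, so their differences are between dim values. SLC30A1, the zinc exporter of the plasma membrane and a classical MTF1 target named here outside the rule, had an intensity of 4355 in B1 and 2281 in B2, against 3281 untreated. By this probe set SLC30A1 was higher in B1 and lower in B2, the order seen for MTF1. Of its 3 probe sets 2 were lower in B2, and the log2 differences averaged 0.23 in B1 and -0.33 in B2. The 2 cisplatin arrays lay on opposite sides of untreated, in either order, for 6526 of all 19775 genes. GCLC, the catalytic subunit of glutathione synthesis, had log2 differences of -0.06 and -0.89, and TXNRD2, the mitochondrial thioredoxin reductase, an intensity of 197 in B1 and 111 in B2, against 221 untreated. The 2 probe sets of TXNRD2 averaged log2 differences of 0.02 and -0.37. NDRG1, a stress-responsive gene, was at -0.13 and 1.02, and the transcription factor ZNF143 at 0.00 and 0.61 (-0.16 and 0.31 over its 2 probe sets). Upstream sequence was found for 11 of these genes, and 4 of them held a metal response element core, which 24.8% of all promoters held.

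Zinc and copper handling genes went in both directions in B2. Of 21 measured, 4 were at least 2-fold lower and 2 higher in B2, against 4.5% and 2.99% of all genes, and the medians were -0.02 in B1 and -0.04 in B2. The zinc importer gene SLC39A4 had an intensity of 157 in B1 and 775 in B2, against 165 untreated, a 4.69-fold higher value in B2. The Golgi zinc transporter gene SLC30A7 was at -0.16 and -1.38, and the copper pump gene ATP7A at -0.12 and -1.95. The zinc-sensing receptor gene GPR39 was at -1.99 and -2.57 (mean over its 3 probe sets -1.07 and -1.16). Of the 102 genes measured over all lists, GPR39 was the 1 that was 2-fold lower in both arrays, against 0.678% of all genes. A count of 1 in 102 is near that share. The B1 value of GPR39 was low too, where the metallothioneins' B1 signal was near untreated.

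The list of NRF2 and metal stress genes had the lowest B2 median of the lists outside the family. Of 10 measured, 3 were at least 2-fold lower in B2 and 0 in B1, against 4.5% and 1.51% of all genes. All 10 had a mean log2 of at least 6, where 7.36% of 10209 genes were 2-fold lower in B2 and 2.42% in B1. The list medians were 0.09 in B1 and -0.78 in B2. HMOX1, haem oxygenase, which cadmium and other metals induce, had an intensity of 1738 in B1 and 115 in B2, against 1528 untreated, or 13.3-fold lower in B2. NQO1, a quinone reductase, had 2336 in B1 and 534 in B2, against 2170 untreated, and its 3 probe sets were all lower in B2. GCLM, the regulatory subunit of glutathione synthesis, had 2331 in B1 and 944 in B2, against 2345 untreated. In all 3 genes B1 lay within 0.2 of untreated on the log2 scale and B2 lay below both, the order of the metallothioneins. The cystine transporter gene SLC7A11 was at -0.59 and -0.92, with 2 of its 3 probe sets lower in B2. None of these genes passed the limma test (adjusted p = 0.97 for each of the 4). Glucocorticoid-induced genes (9 measured) had medians of 0.22 in B1 and -0.09 in B2, with TSC22D3 at 0.22 and -1.34, DUSP1 at 1.22 and -0.22, ERRFI1 at 0.73 and 0.94 and FKBP5 at -0.35 and -0.19. Over all probe sets the differences were 0.07 and -0.51 for TSC22D3, 0.68 and 0.03 for DUSP1 and -0.16 and 0.04 for FKBP5, so that the sign in B2 turned for DUSP1 and FKBP5. Of the housekeeping genes 7 were measured, and their differences ran from -0.10 to 0.23 in B1 and from -0.19 to 0.43 in B2.

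**Figure D4:**
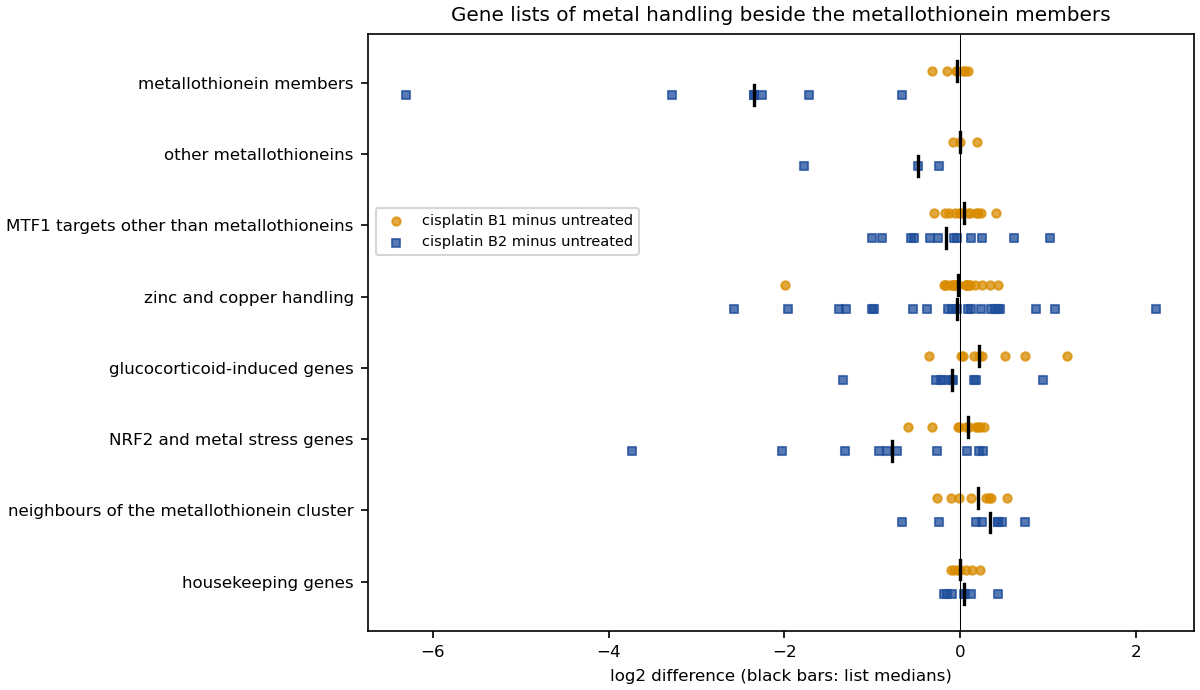
Log2 difference from untreated (horizontal axis) in cisplatin B1 (orange circles) and cisplatin B2 (blue squares) for each measured gene of the lists, with black bars at list medians. The B2 median is -2.34 for the 7 metallothionein members, -0.78 for NRF2 and metal stress genes and -0.16 for listed MTF1 targets.

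Among 10202 other genes with a mean log2 level of at least 6, those nearest to MT2A in their 2 log2 differences, by Euclidean distance over the 3 arrays, were the long non-coding RNA gene MIR550A3HG (distance 0.030), the polo-like kinase gene PLK2 (0.034), the planar polarity gene PRICKLE1 (0.049), MT1HL1 (0.066) and MDM1 (0.075). PLK2, read by 1 probe set, had an intensity of 1105 in B1 and 344 in B2, against 1151 untreated. The genes nearest to MTF1 were FBXL14 (0.0035), ZBTB11 (0.020), the mitochondrial superoxide dismutase gene SOD2 (0.023), LLPH (0.025) and TIPRL (0.030). With 3 arrays such closeness rests on 2 numbers per gene, and over all its probe sets LLPH was at 0.78 and 0.08 in place of 0.20 and -0.76. Means over all probe sets also moved for FBXL14 (0.25 and -0.42), ZBTB11 (0.30 and -0.27), PRICKLE1 (-0.23 and -1.23) and MDM1 (0.07 and -1.23). In B2 they moved less for MIR550A3HG (0.08 and -1.46) and TIPRL (0.13 and -0.65). PLK2, MT1HL1 and SOD2 had 1 probe set each, and that of MT1HL1, an _x_at set, may also read the members' transcripts.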

How the data were processed

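KYSE140 RNA was measured on 3 Affymetrix arrays (2 cisplatin, 1 untreated). The deposited intensities, 1 for each of 54675 probe sets, were made with RMA per the submitters' processing notes, with its version not given in the sources used here. This method removes background, aligns the arrays and reduces the probes of a set to 1 value. The deposited values are linear, so they were turned to log2 with no pseudocount. The 62 control probe sets were left out. The platform annotation gave 1 symbol to 41091 probe sets, several to 1801 and none to 11721, and symbols were updated by gene number to GRCh38.p14 (19735 of 19775 genes found). Differences are cisplatin minus untreated. limma 3.58.1 in R 4.3.3 was fitted over all probe sets and, separately, over genes by brightest probe set (1 residual and 2.21 or 2.01 prior degrees of freedom), and was checked on simulated data; the untreated array is assumed to vary like the cisplatin pair. Precision is limited by how few arrays there are.

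Members and lists were chosen with earlier results of these data known, so no list was tested. Named were all members, other measured metallothioneins, up to 4 genes of each list with the largest absolute mean difference, and the 5 genes nearest in pattern to MT2A and to MTF1; exceptions are marked in the text. Alternatives covered normalization, probe set choice, filters, the variance trend and each cisplatin array alone. Promoter motifs were searched with Python 3.11.15.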

Additional observations from a re-analysis of the deposited data

How the results depend on the processing

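The limma count of probe sets or genes stayed at 0 under quantile normalization, median centring, a variance trend, a mean log2 filter of 6 and, for genes, other probe set choices (565 genes and 2165 probe sets had an unadjusted p under 0.05). The result that turned on 1 array is the members' own: leaving out each cisplatin array in turn gave a median log2 difference of the 7 metallothionein genes from -2.34 (B2 alone) to -0.03 (B1 alone), around -1.16 for the pair, and for MTF1 from -0.79 to 0.20, around -0.29. With 1 cisplatin array alone, the 2-fold rule passed between 47 and 591 genes higher and between 299 and 890 lower. For the pair these counts were 28 and 134. Among the listed genes, between 1 and 11 were lower by the rule with 1 array. The rule for the pair asks for both arrays, so a count from 1 array cannot be smaller and does not measure stability. At 1.5-fold the counts were 189 higher and 524 lower, and with the mean of all probe sets 38 were lower. Without _x_at sets where a gene had another, MT1G was at -0.16 in place of -1.16, and the other members kept their probe set. The list median of the metallothionein cluster's neighbours was -0.01 above a mean log2 of 6, against 0.26 without that filter, a setting added after seeing the data. That filter left out GNAO1, SLC12A3 and CETP, whose mean log2 levels were 5.12, 5.05 and 3.43. What lay behind the gap between B1 and B2 was not tested. Adding probe sets with several symbols was not run because 0 of them named a member. No paired analysis was possible because the untreated array carries no replicate label. One untreated array, and no detection calls, limit every dim value.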

Other observations

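Bright probe sets outside the members were seldom 2-fold lower in B2 than in the untreated array. Of 351 other probe sets with an untreated intensity over 5000, 3 were at least 2-fold lower in B2 (0.855%). All 9 _x_at members exceeded that level, which was set after seeing them. It was read in the untreated array, from which the B2 differences are taken. The share therefore describes the 351 and is no test of the members. The lowest of the 351 in B2, at a log2 difference of -1.78, was the _x_at set of the metallothionein-like gene MT1HL1. The median log2 difference of those 351 was 0.00 in B1 and 0.02 in B2. Among 4198 other _x_at probe sets of the array 2.24% were at least 2-fold lower in B2 and 0.50% in B1, with medians of 0.05 and 0.04. Upstream of MT4 and of MT1B, the 2 other genes of the cluster with promoter sequence here, 3 metal response element cores were matched in each, a number reached by 1.58% of promoters.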
